A study of Mus musculus with 8 samples.

Results

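The angiopoietin-like, angiopoietin and VEGF genes encode secreted factors best known for their effects on blood vessels and on blood lipids. The 10 genes described here are Angptl1, Angptl2, Angptl4, Angptl6 and Angptl7 (angiopoietin-like), Angpt1 and Angpt2 (angiopoietins), and Vegfa, Vegfb and Vegfc (vascular endothelial growth factors). They were taken by name, as paralogs of 3 families, out of 55335 gene identifiers in the deposited table, and all 10 were found there. They were selected on their FPKM values in these 8 libraries, with the difference between the scaffolds already known. Their fold changes and p-values are therefore given as a description of these libraries, and nothing is supported with them.

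RNA was sequenced from 8 libraries of MC3T3-E1, a long-used mouse cell line of pre-osteoblasts from the skull cap. TABS (n = 4) stands for cells cultured for 3 days with the Trio-Active bone scaffold, whose make-up the labels do not give. HA (n = 4) stands for cells cultured equally long with a hydroxyapatite scaffold doped with magnesium ions. Every library came from cells with a scaffold, so no group shows the cells without one. No label says that the libraries of a group came from separate cultures, and p-values then measure only the spread between libraries, which may be technical. The authors' library names use H for a TABS sample and L for an HA sample, and no gene checks which scaffold a library came from.

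Angiopoietin-like proteins share with the angiopoietins a coiled-coil region and, in most members, a fibrinogen-like domain, but they do not act through the angiopoietin receptor Tek (Tie2). Angpt1 activates Tek and steadies vessels, and Angpt2 competes with it at the same receptor. Vegfa drives vessel sprouting through the receptor Kdr, Vegfb and Pgf bind Flt1, and Vegfc and Vegfd are ligands of Flt4 on lymphatic vessels. In bone, cells of the osteoblast lineage are a source of Vegfa, which links vessel growth to bone formation.

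The stretches upstream of 4 of these genes are shown because they are the most abundant members, or the member with the largest difference between scaffolds. Each is the 250 bases before the RefSeq start of the gene on GRCm38.p6, written 5′ to 3′ on the gene's own strand. The positions are chr4:148500463-148500712 (minus strand) for Angptl7, chr2:33215711-33215960 (plus) for Angptl2, chr19:6987652-6987901 (minus) for Vegfb and chr17:46032378-46032627 (minus) for Vegfa, whose first of 2 listed starts was used. Capitals mark matches, on either strand, to the motifs described after the sequences.
Angptl7: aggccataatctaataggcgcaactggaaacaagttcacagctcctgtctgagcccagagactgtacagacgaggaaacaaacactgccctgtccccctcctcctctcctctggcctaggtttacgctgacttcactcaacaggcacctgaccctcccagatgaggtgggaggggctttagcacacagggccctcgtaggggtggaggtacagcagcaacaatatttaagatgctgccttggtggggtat
Angptl2: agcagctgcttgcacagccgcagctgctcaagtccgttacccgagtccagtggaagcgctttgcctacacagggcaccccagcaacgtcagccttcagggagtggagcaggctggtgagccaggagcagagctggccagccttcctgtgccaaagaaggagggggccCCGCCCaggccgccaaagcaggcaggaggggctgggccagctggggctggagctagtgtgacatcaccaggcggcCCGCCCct
Vegfb: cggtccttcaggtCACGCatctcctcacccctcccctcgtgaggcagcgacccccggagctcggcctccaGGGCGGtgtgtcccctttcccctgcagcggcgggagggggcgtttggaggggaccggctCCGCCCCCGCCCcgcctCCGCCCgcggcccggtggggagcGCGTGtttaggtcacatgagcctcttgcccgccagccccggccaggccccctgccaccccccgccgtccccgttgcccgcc
Vegfa: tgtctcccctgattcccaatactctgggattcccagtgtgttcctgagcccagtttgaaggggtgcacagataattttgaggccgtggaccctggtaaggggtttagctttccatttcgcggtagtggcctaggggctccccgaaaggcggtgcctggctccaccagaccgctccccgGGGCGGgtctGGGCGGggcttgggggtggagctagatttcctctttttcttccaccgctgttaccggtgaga

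RefSeq promoters were found for 7 of the 10 genes, with no entry for Angptl4, Angpt1 and Angpt2. The letters TGANTCA were searched for AP-1, and for the core of the hypoxia-inducible factor site both ACGTG and, with another first base, GCGTG. For RUNX factors the letters were TGTGGT. For SP1 they were GGGCGG. The letters of the TATA box were TATAAA. No position can match both of the hypoxia cores, and 1 CACGTG holds the first core on both strands. Of 32851 promoter windows of the same length, 6.75% held the AP-1 letters, 16.6% ACGTG, 28.2% GCGTG, 14.0% the RUNX letters, 32.7% the SP1 letters and 12.4% TATAAA. The window of Angptl7 held none of them. That of Angptl2 held the SP1 letters at 83 and 8 bases before the start, and that of Vegfa at 72 and 62. The window before the second listed start of Vegfa, not shown, held GCGTG at 218 bases before that start, ACGTG at 211 and the SP1 letters at 158. That window (chr17:46025164-46025413) lies inside the Vegfa gene, which spans 46016993 to 46032369. The Vegfa window shown above held neither of the hypoxia cores. The Vegfb window held the SP1 letters at 4 places and GCGTG at 237 and 81 bases before the start. It was also the richest in CpG of these 4, with 26 CpG pairs, against 11 for Vegfa, 9 for Angptl2, 4 for Angptl7 and a median of 6 over all windows. A match is a run of letters, and its absence says only that these letters are not in this window.

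Levels are in FPKM, fragments per transcript length and per fixed total of fragments, a unit in which different genes can be set side by side. In TABS the order was Angptl2, Vegfb, Angptl7, Vegfa, Angpt1, Angpt2, Angptl6, Angptl4, Vegfc and Angptl1. In HA it was Vegfb, Angptl2, Vegfa, Angpt1, Angptl7, Angpt2, Angptl6, Angptl4, Vegfc and Angptl1. Neighbours in these orders differed in mean by more than the larger of their SDs, except Angptl7 and Vegfa in TABS and Angptl4 and Vegfc in HA. Angptl7 was thus the third in TABS and the fifth in HA. The plot of levels by library shows this span, from under 0.05 FPKM to over 20.

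**Figure D1:**
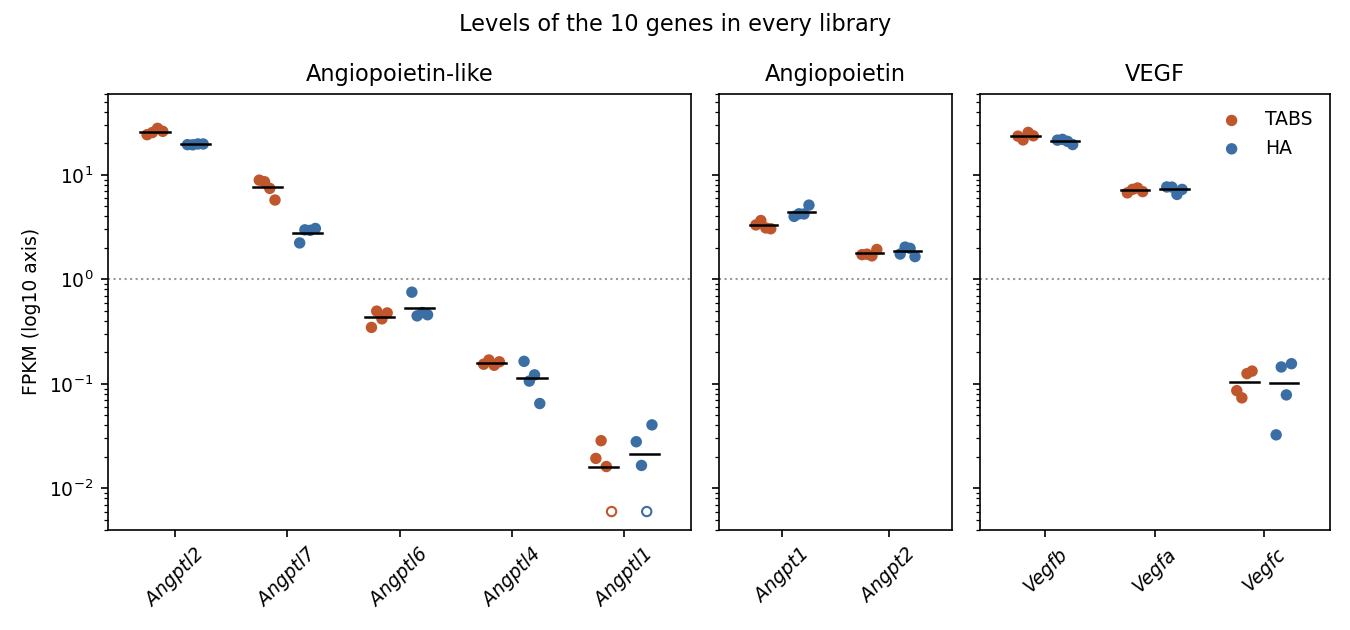
FPKM of the 10 genes (log10 vertical axis) in each of 4 TABS libraries (orange) and 4 HA libraries (blue), in 3 panels by family. Each point is a library, open points at the bottom are values of 0, black bars are group means and the dotted line is 1 FPKM. Angptl7, Angptl2 and Angpt1 are the genes above 1 FPKM whose groups do not overlap.

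A gene was tested where it reached 1 FPKM in at least 4 of the 8 libraries. Of the 10 genes 6 were tested, and 4 (Angptl1, Angptl4, Angptl6 and Vegfc) were below 1 FPKM in every library. The test was limma on log2(FPKM + 1), with Benjamini-Hochberg adjustment over all 11280 genes tested and a threshold of 0.05. Fold changes are TABS minus HA on that scale, which understates the change of genes at low FPKM. Where a gene is said to rise or fall, it was higher or lower in TABS than in HA. Of the 6 genes tested, 2 were higher in TABS (Angptl7 and Angptl2), 1 was lower (Angpt1) and 3 did not pass (Angpt2, Vegfa and Vegfb), with a median log2 fold change of 0.07. Over all genes tested 4.49% were higher and 2.9% lower (7.38% in all), with a median of 0.01. The groups did not overlap for 3 of the 6, against 18% of all genes tested (10.8% higher and 7.15% lower). Since this difference was known when the genes were chosen, the share of the 6 is not read against that background.

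Angptl7 encodes a secreted glycoprotein known from the cornea and the outflow tissue of the eye. It stood at 8.89, 8.59, 7.42 and 5.74 FPKM in TABS 1 to 4, against 2.23, 2.98, 2.94 and 3.07 FPKM in HA 1 to 4. Every TABS library lay above every HA library. TABS 4 was the lowest of its group and HA 1 the lowest of HA. The means were 7.66 ± 1.43 FPKM in TABS and 2.80 ± 0.39 FPKM in HA (SD, n = 4 each), a ratio of 2.73. The log2 fold change was 1.18 ± 0.12 (SE; limma adjusted p = 0.00103), which ranked the fifth among all genes higher in TABS. The call stood in all 19 alternatives, with fold changes between 1.10 and 1.41. Angptl7 (ENSMUSG00000028989) occupies bases 148495183 to 148500460 of chromosome 4 in GRCm38, on the minus strand.

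Angptl2 encodes a secreted ligand of the integrin made of Itga5 and Itgb1, and of the immune receptor Pirb in mice. TABS 1 to 4 had 24.2, 25.4, 27.9 and 26.1 FPKM, against 19.4, 19.4, 19.7 and 19.7 FPKM in HA 1 to 4. The groups did not overlap, and the HA libraries lay within a far narrower range than the TABS libraries. The means were 25.9 ± 1.52 FPKM in TABS and 19.6 ± 0.19 FPKM in HA (SD, n = 4 each), with a log2 fold change of 0.38 ± 0.05 (SE; limma adjusted p = 0.00195). The call stood in all 19 alternatives, with fold changes between 0.33 and 0.44. Angptl2 (ENSMUSG00000004105) lies on chromosome 2 from 33216069 to 33247717, on the plus strand.

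The remaining angiopoietin-like members were below 1 FPKM in every library. Angptl6, whose product acts on vessels and metabolism in mice, had 0.347, 0.496, 0.419 and 0.477 FPKM in TABS, against 0.754, 0.447, 0.481 and 0.458 FPKM in HA. Its groups overlapped, and the highest value was that of HA 1. Angptl4, an inhibitor of lipoprotein lipase and a target of hypoxia and of PPAR receptors, had 0.151 to 0.169 FPKM in TABS and 0.0648 to 0.164 FPKM in HA, with overlapping groups. Angptl1, known to restrain endothelial cells, was at most 0.0286 FPKM in TABS and 0.0405 FPKM in HA, with 1 library of each group listed at 0. Exons of Angptl6 and Angptl1 overlap those of antisense-strand genes by 265 and 465 bases, so some of their reads could be split. The partner of Angptl6, A230050P20Rik, averaged 0.0052 FPKM in TABS and 0 FPKM in HA. That of Angptl1, Gm37802, averaged 0 FPKM in TABS and 0.0082 FPKM in HA. Such a split was not tested. The number of fragments behind these low values is unknown. Outside the 10, Angptl8, which takes part in the control of lipoprotein lipase, had 0 to 0.0739 FPKM in TABS and 0.0551 to 0.215 FPKM in HA.

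The summed FPKM of these 6 angiopoietin-like genes was 34.2 ± 1.45 in TABS and 23.2 ± 0.28 in HA (SD, n = 4 each), and the groups did not overlap. Angptl7 made up 26.4%, 24.8%, 20.7% and 17.7% of that sum in TABS 1 to 4, against 9.78%, 12.9%, 12.6% and 13.1% in HA 1 to 4. Angptl2 accordingly took 75.7% ± 3.88 in TABS and 84.5% ± 0.64 in HA (SD, n = 4 each). The ratio of Angptl7 to Angptl2 was 0.220 to 0.367 in TABS and 0.115 to 0.155 in HA. Both paralogs were higher in TABS, and their ratios did not overlap between the groups.

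**Figure D2:**
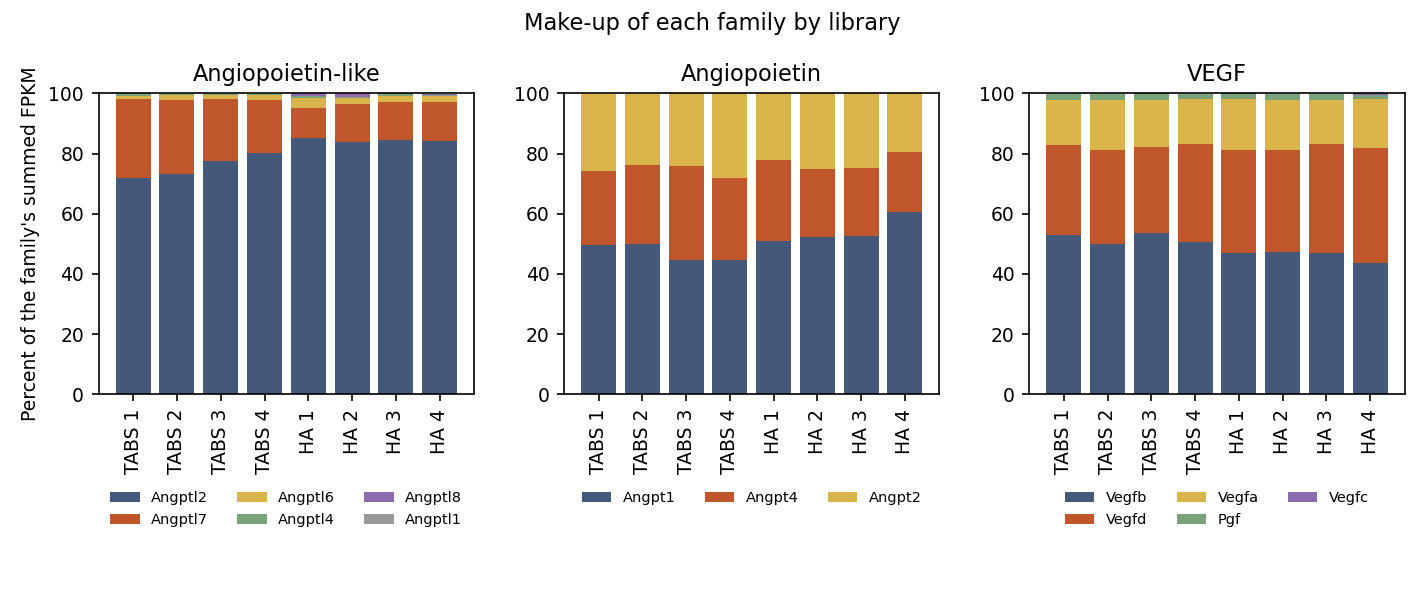
Share of each gene in the summed FPKM of its family (vertical axis, percent), in 4 TABS libraries on the left of each panel and 4 HA libraries on the right. Angptl7 takes 17.7% to 26.4% in TABS and 9.78% to 13.1% in HA, while Vegfb, Vegfd and Vegfa keep the same order in all 8 libraries.

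Among the angiopoietins, the Tek agonist Angpt1 was lower in TABS. Its values were 3.31, 3.65, 3.11 and 3.05 FPKM in TABS 1 to 4, against 4.002, 4.24, 4.22 and 5.13 FPKM in HA 1 to 4. All TABS libraries lay below all HA libraries, and HA 4 was the highest. The means were 3.28 ± 0.27 FPKM in TABS and 4.40 ± 0.50 FPKM in HA (SD, n = 4 each), with a log2 fold change of -0.33 ± 0.07 (SE; limma adjusted p = 0.0293). The call was lost without TABS 1 (adjusted p = 0.0693), TABS 3 (0.0818), TABS 4 (0.0828), HA 2 (0.0578) or HA 3 (0.0582), and with no filter on low FPKM (0.0814). With each library corrected for transcript GC content and length the fold change was -0.23 (limma adjusted p = 0.0132). Angpt1 has the transcript with the lowest GC content of the 10, at 39.3%. It lies on chromosome 15 from 42424723 to 42676977, and 737 bases of its exons are shared with the antisense gene Gm17473, which averaged 0.0055 FPKM in TABS and 0.00292 FPKM in HA.

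Angpt2, the competing ligand, had 1.72, 1.74, 1.68 and 1.93 FPKM in TABS 1 to 4 and 1.75, 2.03, 1.98 and 1.65 FPKM in HA 1 to 4. The groups overlapped, and the log2 fold change was -0.04 with a 95% interval of -0.18 to 0.09 (limma adjusted p = 0.719). Angpt4, a further Tek ligand outside the 10, averaged 1.90 ± 0.22 FPKM in TABS and 1.87 ± 0.18 FPKM in HA (SD, n = 4 each; limma adjusted p = 0.913). The ratio of Angpt1 to Angpt2 was 1.92, 2.10, 1.85 and 1.58 in TABS, against 2.29, 2.08, 2.13 and 3.11 in HA. TABS 2 lay above HA 2, so the ratios overlapped. The receptor Tek was listed at 0 in 6 of the 8 libraries and was at most 0.00865 FPKM.

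In the VEGF family Vegfb was the most abundant gene in every library. It had 23.5, 21.6, 25.5 and 23.6 FPKM in TABS 1 to 4 and 21.5, 21.8, 20.9 and 19.5 FPKM in HA 1 to 4. TABS 2 lay below HA 2, so the groups overlapped. The log2 fold change was 0.16 ± 0.06 (SE), with a 95% interval of 0.03 to 0.29 that is not adjusted for the number of genes, and Vegfb did not pass (limma adjusted p = 0.123). Vegfa had 6.72, 7.26, 7.48 and 6.91 FPKM in TABS and 7.66, 7.63, 6.49 and 7.25 FPKM in HA. The groups overlapped, and the 95% interval of the log2 fold change ran from -0.16 to 0.10 (limma adjusted p = 0.817). Vegfc, the lymphatic ligand, was at 0.0734 to 0.132 FPKM in TABS and 0.0325 to 0.156 FPKM in HA.

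Vegfd, which binds the same receptor as Vegfc and is not among the 10, was the second most abundant gene of the family. It had 13.2, 13.6, 13.7 and 15.3 FPKM in TABS 1 to 4, against 15.7, 15.7, 16.1 and 17.2 FPKM in HA 1 to 4. All TABS values lay below all HA values, but Vegfd did not pass the test (log2 fold change -0.20 ± 0.05 SE, limma adjusted p = 0.0558). It passed without TABS 4 (-0.24, adjusted p = 0.0338) and under 4 other alternatives. Pgf, placental growth factor, stayed below 1 FPKM, at 0.736 to 0.839 in TABS and 0.672 to 0.867 in HA. The summed FPKM of the 5 VEGF genes was 45.5 ± 1.999 in TABS and 45.3 ± 0.80 in HA (SD, n = 4 each). Within that sum Vegfb took 51.7% ± 1.82 in TABS and 46.2% ± 1.81 in HA, and Vegfd 30.7% ± 1.80 in TABS and 35.8% ± 2.06 in HA. The ratio of Vegfb to Vegfd was 1.54 to 1.87 in TABS and 1.13 to 1.39 in HA, with no overlap.

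**Figure D3:**
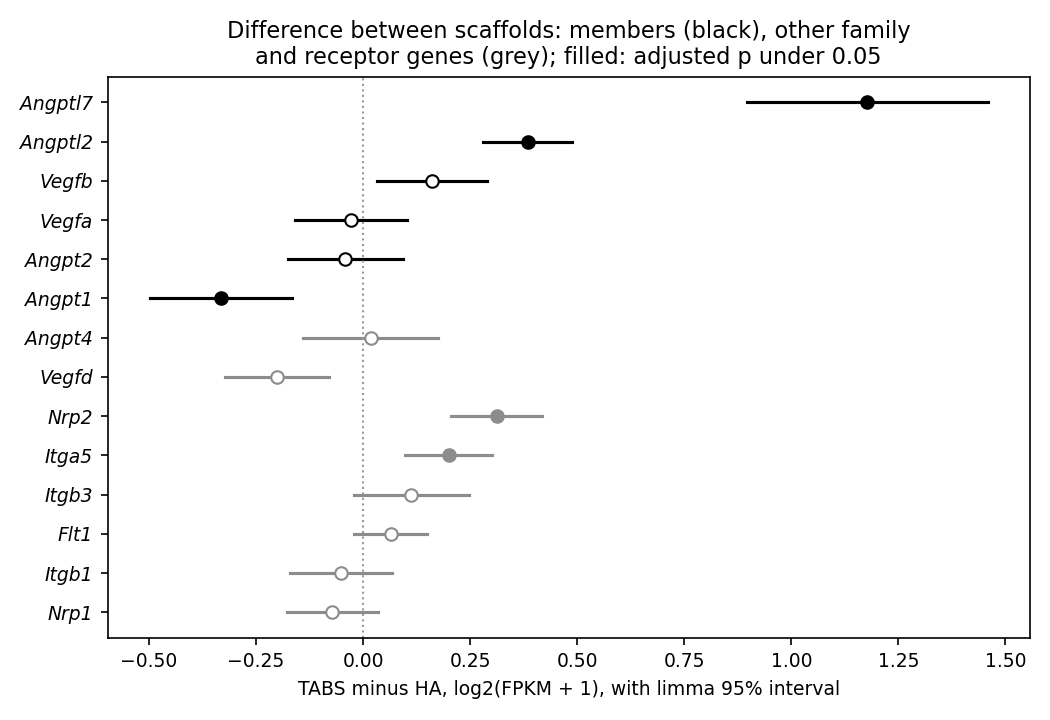
Log2 fold change (TABS minus HA, on log2(FPKM + 1), horizontal axis) with limma 95% intervals for the 6 tested members in black and for other tested family and receptor genes in grey. Filled points passed at an adjusted p under 0.05: Angptl7, Angptl2 and Angpt1 among members, Nrp2 and Itga5 among receptors.

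Of 14 genes of the 3 families analysed here, 5 lie inside an intron of a larger protein-coding gene on the other strand, and 4 of these are among the 10 genes. Angptl7 lies in intron 28 of Mtor, the kinase of the growth-control complexes, and Angptl2 in intron 8 of Ralgps1, an exchange factor for Ral GTPases. Its paralog Angptl1 lies in intron 7 of Ralgps2, the paralog of Ralgps1, and Angpt2 in intron 12 of Mcph1, the microcephalin gene. Angptl8 lies in intron 14 of Dock6. Introns are counted along the longest transcript, and another Mcph1 transcript has an exon between exons of Angpt2. None of the 5 shares an exon base with its host.

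The 2 hosts of the genes that were higher in TABS also had higher values there, without passing the test. Mtor had 4.56, 4.75, 4.57 and 4.62 FPKM in TABS, against 3.84, 4.204, 4.27 and 3.98 FPKM in HA (log2 fold change 0.15 ± 0.04 SE, limma adjusted p = 0.0734). Ralgps1 had 2.11, 2.08, 1.80 and 1.83 FPKM in TABS, against 1.42, 1.69, 1.48 and 1.65 FPKM in HA (0.21 ± 0.06 SE, adjusted p = 0.0699). Neither host overlapped between the groups, which was also so for 18% of all genes tested. Rescaled to TPM (transcripts per fixed total), Mtor (adjusted p = 0.0343) and Ralgps1 (0.0449) passed, as did Ralgps1 after quantile normalization (0.0349). Rescaling to TPM also moved the median log2 fold change of all genes tested from 0.01 to 0.04. Over the alternatives Mtor ran from 0.08 to 0.21 (limma adjusted p up to 0.375). Ralgps1 ran from 0.15 to 0.31 (up to 0.178). Ralgps2, the host of Angptl1, was below 1 FPKM throughout, at 0.645 to 0.748 in TABS and 0.845 to 0.981 in HA. Mcph1 averaged 2.09 ± 0.08 FPKM in TABS and 2.06 ± 0.26 FPKM in HA (SD, n = 4 each; limma adjusted p = 0.897). The strand setting of the authors' counting is not given, so unspliced host RNA cannot be told apart from RNA of the nested gene by these values. Its part in them was not tested.

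**Figure D4:**
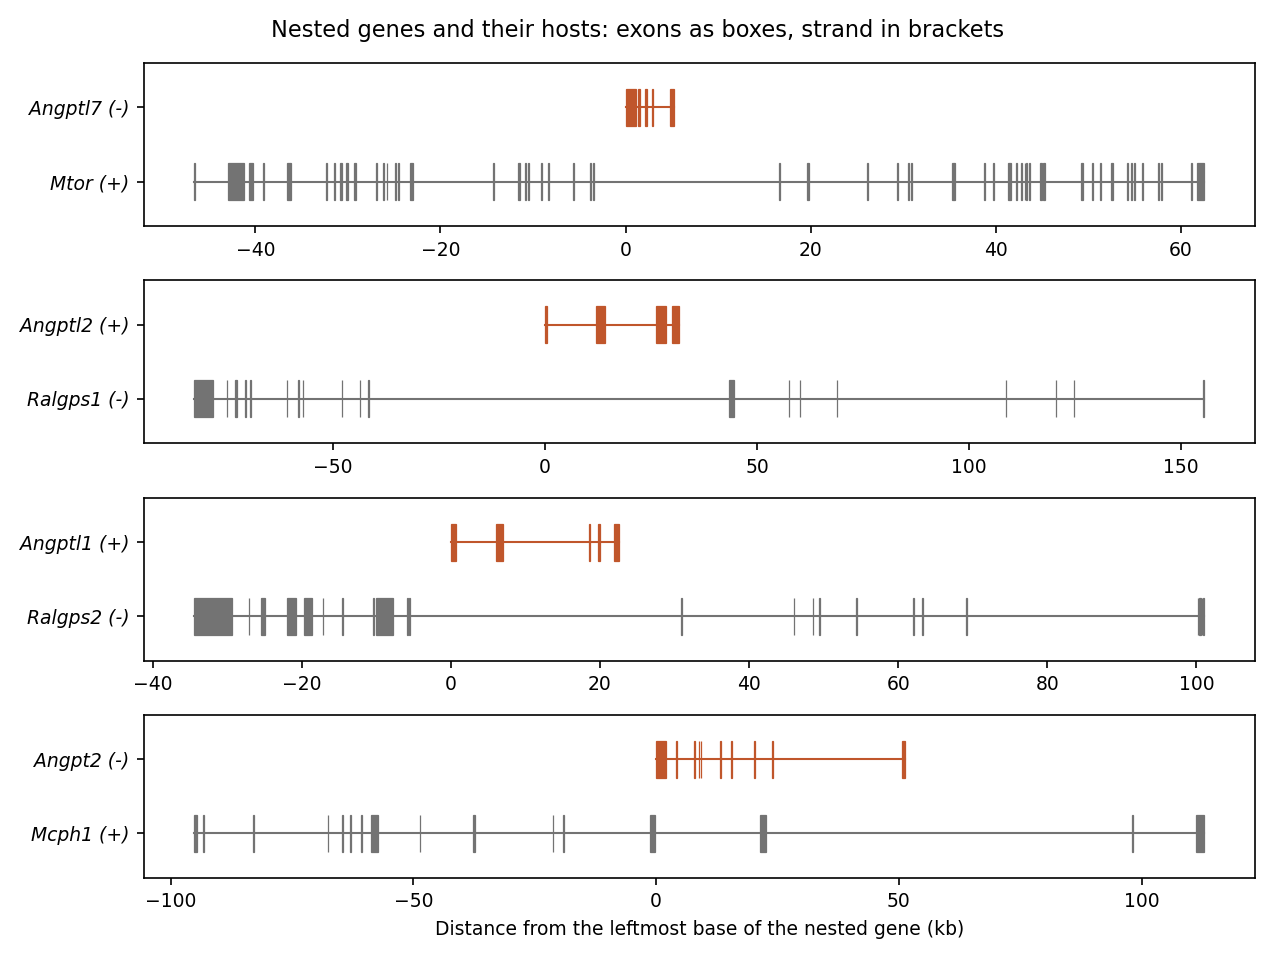
Gene models of the 4 nested members (orange) and their hosts (grey), each pair drawn to its own scale as distance in kb from the leftmost base of the nested gene. Boxes are exons of all annotated transcripts and the strand stands in brackets: Angptl7 in Mtor, Angptl2 in Ralgps1, Angptl1 in Ralgps2 and Angpt2 in Mcph1 lie on opposite strands and share no exon base.

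The receptors that would receive these ligands were unevenly present. Kdr and Flt4 were listed at 0 in all 8 libraries, and Tie1, the partner of Tek, was at most 0.0265 FPKM. Flt1, the receptor of Vegfb and Pgf, had 8.40 to 8.61 FPKM in TABS and 7.87 to 8.32 FPKM in HA (limma adjusted p = 0.333). Of 13 receptor and co-receptor genes 7 were tested, 2 of them rose, 0 fell and 5 did not pass, with a median log2 fold change of 0.11. Nrp2, a co-receptor of Vegfc and Vegfd and of semaphorins, rose to 38.8, 40.0, 40.1 and 38.7 FPKM in TABS, against 28.9, 32.5, 32.6 and 32.3 FPKM in HA (log2 fold change 0.31 ± 0.05 SE, limma adjusted p = 0.00556). Its paralog Nrp1 did not pass, at 2.24 ± 0.10 FPKM in TABS and 2.41 ± 0.11 FPKM in HA (SD, n = 4 each; limma adjusted p = 0.383). The Angptl2 receptor chain Itga5 rose to 60.7, 58.8, 59.3 and 57.0 FPKM in TABS, against 54.1, 52.3, 50.5 and 48.1 FPKM in HA (0.20 ± 0.05 SE, adjusted p = 0.0328). The call on Itga5 was lost without any 1 library except HA 1 (adjusted p 0.0577 to 0.0910) and with no filter on low FPKM (0.0588). Its partner chain Itgb1 did not pass (adjusted p = 0.593). Pirb was listed at 0 in 7 libraries and Lilrb4a in all 8.

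All 9 osteoblast markers were tested, with 1 higher (Spp1) and 5 lower (Ibsp, Alpl, Sp7, Col1a1 and Sparc) in TABS, which is 66.7% called, against 7.38% of all genes tested. Ibsp, the bone sialoprotein gene, averaged 14.5 ± 1.32 FPKM in TABS and 50.3 ± 3.58 FPKM in HA (SD, n = 4 each; log2 fold change -1.73, limma adjusted p = 1.51e-05). Alpl, the alkaline phosphatase gene, was at 0.373 to 0.518 FPKM in TABS and 1.13 to 1.80 FPKM in HA. It thus entered the test only through the HA libraries, where it was higher. The sums of the 9 were 4970 to 5523 FPKM in TABS and 4792 to 5011 FPKM in HA, of which Spp1, the osteopontin gene, took 3083 to 3569 FPKM in TABS and 2082 to 2644 FPKM in HA. Runx2, Col1a2 and Bglap did not pass. All 12 endothelial markers were below 1 FPKM throughout, with Kdr and Sox17 listed at 0 and sums of 0.606 to 0.738 FPKM in TABS and 0.492 to 0.616 FPKM in HA. Of 8 mural and pericyte markers 3 were tested, with 1 higher (Pdgfrb) and 1 lower (Acta2). The sums of the 8 were 187 to 212 FPKM in TABS and 244 to 276 FPKM in HA, and Abcc9 and Kcnj8 were listed at 0. Most of these sums was Acta2 (104 to 127 FPKM in TABS, 172 to 199 FPKM in HA) and Pdgfrb (71.4 to 73.2 FPKM in TABS, 60.8 to 66.0 FPKM in HA). Rgs5 was at most 0.0202 FPKM, Des at most 0.464 FPKM and Notch3 at most 1.01 FPKM. Of 7 adipocyte markers 2 were tested and 0 passed (also 0 at an unadjusted p under 0.05), with sums of 4.19 to 4.86 FPKM in TABS and 3.93 to 5.21 FPKM in HA. Those sums were mostly Fabp4 (2.92 to 3.37 FPKM in TABS, 2.61 to 3.38 FPKM in HA) and Cebpa (1.12 to 1.47 FPKM in TABS, 1.18 to 1.82 FPKM in HA), with Pparg at most 0.0161 FPKM. Of 5 chondrocyte markers 2 were tested, with 1 higher (Col2a1). The sums of the 5 were 40.8 to 43.4 FPKM in TABS and 37.04 to 41.7 FPKM in HA. Sox9 made up most of these sums (35.3 to 37.6 FPKM in TABS, 33.1 to 36.7 FPKM in HA) and did not pass (limma adjusted p = 0.369). Col2a1 was at 5.33 to 5.79 FPKM in TABS and 3.82 to 4.96 FPKM in HA. Acan was at most 0.00951 FPKM and Matn1 at most 0.0305 FPKM, and Col9a1 was listed at 0. Macrophage markers had 1 of 2 tested genes lower, sums of 19.0 to 24.0 FPKM in TABS and 23.9 to 26.6 FPKM in HA. Nearly all of these sums was Lyz2, the lower one, at 13.5 ± 2.16 FPKM in TABS and 18.7 ± 1.10 FPKM in HA, and Cd14, at 7.85 ± 0.86 FPKM in TABS and 6.32 ± 0.30 FPKM in HA (SD, n = 4 each). Cd14 did not pass (limma adjusted p = 0.0508), and Ptprc was at most 0.0104 FPKM. The calls on markers were not rerun under the alternatives, and the part of such cells in the values of the 10 genes was not tested.

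Genes that receive, control or process these ligands were counted from lists. Over 8 such lists 83 genes were tested, of which 13 were higher and 6 lower in TABS (22.9%, against 7.38% of all genes tested), with a median log2 fold change of 0.05. Rescaled to TPM, 915 genes were higher and 239 lower among all genes tested, against 506 and 327 with FPKM as deposited. The lists were drawn up with results of these libraries known and were not tested as lists.

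Oxygen-sensing genes and targets of the hypoxia-inducible factor, which raises Vegfa and Angptl4 when oxygen is low, held no call. Of 24 listed 20 were tested, and 0 passed (limma, with 3 at an unadjusted p under 0.05), with a median log2 fold change of 0.04. Hif1a, the oxygen-regulated subunit, averaged 26.3 ± 0.63 FPKM in TABS and 31.0 ± 2.92 FPKM in HA (SD, n = 4 each; log2 fold change -0.22, limma adjusted p = 0.0623), and its groups did not overlap. After the GC and length correction it passed (-0.15, adjusted p = 0.0316). Slc2a1, the glucose transporter of the same response, did not pass (0.19, adjusted p = 0.144). Car9, a carbonic anhydrase used as a hypoxia marker, had 38.3, 38.7, 42.8 and 41.0 FPKM in TABS, against 44.8, 26.03, 25.6 and 25.9 FPKM in HA. HA 1 alone lay above the TABS values, and Car9 passed only without it (log2 fold change 0.42 with adjusted p = 0.148 over all libraries, 0.62 with 0.00136 without HA 1).

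PPAR receptors and their targets, the route by which lipids raise Angptl4, had 9 of 13 genes tested, with 1 higher and 1 lower and a median of 0.05. Pparg and Ppara, both at most 0.0373 FPKM, were not tested. The receptor gene Ppard was tested and did not pass (limma adjusted p = 0.946). It had 3.73 to 7.28 FPKM in TABS and 3.86 to 6.62 FPKM in HA. Pdk4, a kinase that restrains pyruvate oxidation, fell to 55.1 ± 3.93 FPKM in TABS, against 68.6 ± 4.70 FPKM in HA (SD, n = 4 each; log2 fold change -0.31, limma adjusted p = 0.0255), while the lipid droplet coat gene Plin2 rose (0.24, adjusted p = 0.0132). The call on Pdk4 was lost without TABS 1, TABS 2, HA 2, HA 3 or HA 4 (adjusted p 0.0587 to 0.0679) and with no filter (0.0693). Angptl4 itself was below 0.2 FPKM in every library.

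Of 10 genes of the glucocorticoid receptor and its targets, 9 were tested, 2 rose and 0 fell, with a median of 0.11. Cebpd, a transcription factor gene, rose (log2 fold change 0.34, limma adjusted p = 0.0130), as did the MAP kinase phosphatase gene Dusp1 (0.29, adjusted p = 0.0362). The call on Dusp1 was lost without TABS 1, 3 or 4 or HA 1, 2 or 4 (adjusted p 0.0599 to 0.0946) and with no filter (0.0909). Of 6 genes that bind Vegfa mRNA and set its decay or stability, all were tested. Zfp36, which speeds the decay of AU-rich messages, fell to 4.77 ± 0.30 FPKM in TABS, against 6.25 ± 0.24 FPKM in HA (SD, n = 4 each; -0.33, limma adjusted p = 0.00575). Its paralog Zfp36l2 rose (0.18, adjusted p = 0.0460), a call lost without any 1 library except HA 3 (adjusted p 0.0637 to 0.121), with no filter (0.0817), without a variance trend (0.0537) and after the GC and length correction (0.140). Vegfa itself did not pass in any alternative (adjusted p at least 0.454).

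Of 17 lipases and genes of ligand processing 6 were tested, 1 rose and 0 fell, with a median of 0.09. The plasminogen activator gene Plat rose (0.33, limma adjusted p = 0.00337), and Furin, a protease that cleaves Vegfc and angiopoietin-like proteins, did not pass (0.21, adjusted p = 0.189). Lpl, the lipase that Angptl4 inhibits, was at most 0.00453 FPKM. Of 23 other angiogenic growth factors 15 were tested, 2 rose and 2 fell, with a median of 0.03. Ccn1, a matrix-bound ligand of integrins, fell to 67.5 ± 5.06 FPKM in TABS, against 95.4 ± 3.24 FPKM in HA (SD, n = 4 each; -0.50, limma adjusted p = 0.00169). Pdgfd, a platelet-derived growth factor gene, fell (-0.27, adjusted p = 0.0340), and the chemokine gene Cxcl12 (0.26, adjusted p = 0.0250) and the guidance gene Slit2 (0.19, adjusted p = 0.0455) rose. The call on Slit2 was lost without any 1 library (adjusted p 0.0595 to 0.116), that on Cxcl12 without TABS 1, 2 or 4 or HA 1 or 3 (0.0519 to 0.0725), and that on Pdgfd without TABS 3 or 4 or HA 2, 3 or 4 (0.0579 to 0.0932). With no filter on low FPKM these 3 calls were lost too, and after the GC and length correction those on Pdgfd (0.0567) and Slit2 (0.0644). The call on Slit2 also went with median-of-ratios scaling (0.0524) and robust variances (0.0525).

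Angiogenesis inhibitors held the most calls of these lists. Of 18 listed 11 were tested, 4 rose and 2 fell (54.5% of those tested, against 7.38% of all genes), with a median of 0.08. Serpinf1, the gene of pigment epithelium-derived factor, rose to 89.6 ± 4.26 FPKM in TABS, against 60.6 ± 5.18 FPKM in HA (SD, n = 4 each; log2 fold change 0.56, limma adjusted p = 0.00153). The metalloprotease inhibitor genes Timp2 (0.35, adjusted p = 0.00472) and Timp3 (0.22, adjusted p = 0.0378) rose with the vasohibin gene Vash2 (0.27, adjusted p = 0.0134), whose product is also described as promoting vessels. Adamts1, a protease that binds Vegfa, fell to 186 ± 8.57 FPKM in TABS, against 250.4 ± 11.2 FPKM in HA (SD, n = 4 each; -0.43, limma adjusted p = 0.00192), and the proteoglycan gene Dcn fell too (-0.28, adjusted p = 0.0303). The call on Timp3 was lost without any 1 library except HA 4 (adjusted p 0.0648 to 0.101), and that on Dcn without TABS 1, 3 or 4 or HA 1 or 2 (0.0520 to 0.0844) and after the GC and length correction (0.103). Quantile normalization took the call on Timp3 (0.0602). With no filter on low FPKM the calls on Timp2 (0.0618), Timp3 (0.0788) and Dcn (0.0761) were lost.

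**Figure D5:**
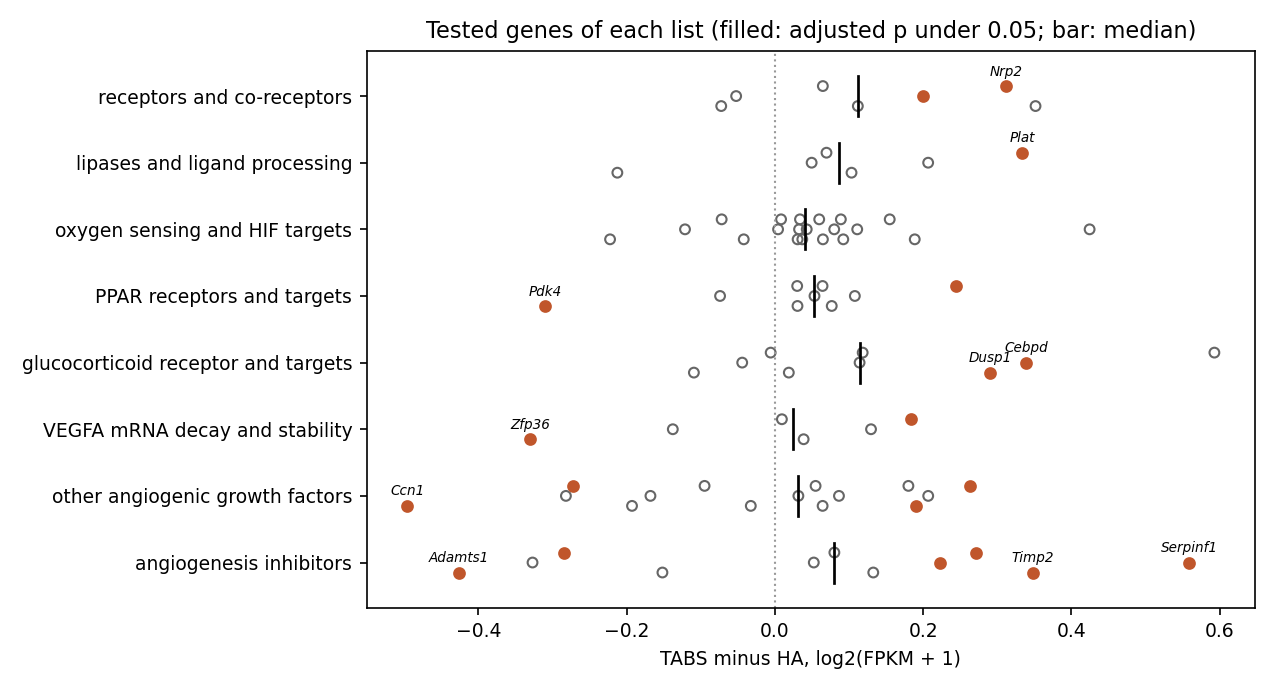
Log2 fold change (TABS minus HA, on log2(FPKM + 1), horizontal axis) of every tested gene in 8 lists, 1 list per row. Filled points passed at an adjusted p under 0.05, black bars are list medians, and called genes beyond 0.29 in size are named. No gene of the oxygen-sensing row is filled, and the row of angiogenesis inhibitors has filled points on both sides of 0.

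The genes with the most similar profiles over the 8 libraries were found by the root mean square difference between centred log2(FPKM + 1) values. Neighbours were sought only for members that passed, over the same libraries. A difference between the groups in a neighbour therefore follows from that choice, and nothing is supported with it. Nearest to Angptl7 were Spon2, a secreted matrix protein gene (0.20), Cd300lb, an immune receptor gene (0.21), and F13a1, the chain of a transglutaminase (0.22). Nearest to Angptl2 were Adam8, a membrane protease gene (0.0398), the laminin chain gene Lamb1 (0.0466) and the mannosidase gene Man1c1 (0.0519). Angpt1 was nearest to Esf1 (0.0398), Sept2 (0.0442) and Zfp946 (0.0447). Esf1 did not pass (limma adjusted p = 0.0551), though it did after quantile normalization (0.0426), the GC and length correction (0.0481) and with robust variances (0.0474). The call on Sept2 (adjusted p = 0.0293) was lost without TABS 1, 3 or 4 or HA 3 or 4 (0.0544 to 0.0830). That on Zfp946 (adjusted p = 0.0379) was lost without TABS 1, 3 or 4 or HA 2, 3 or 4 (0.0783 to 0.102) and after the GC and length correction (0.137). With no filter on low FPKM both were lost (0.0754 and 0.102). Sept2 is annotated as 2 overlapping genes that can share reads, so its value is uncertain. Spon2 averaged 18.1 ± 1.999 FPKM in TABS and 9.10 ± 0.79 FPKM in HA (SD, n = 4 each).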

How the data were processed

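The submitters' processing notes name GRCm38 as the build and list STAR, fastp and DESeq2 as tools. What computed FPKM, from which annotation and with which strand setting, was not stated. The deposited table holds 1 FPKM value per gene and library, made by the authors from paired reads of 150 bases (per the labels' protocols). These are not counts. Low values of single-exon genes, multiplied by transcript length, were multiples of 1 step, within 0.02, in only 19.4% to 24.2% of cases per library, so reads were not recovered, depth is unknown and no count test was run.

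Symbols, positions and transcript lengths came from the GENCODE annotation of GRCm38, which held 55154 of the 55335 identifiers. Promoters came from RefSeq. Genes with at least 1 FPKM in at least 4 libraries entered limma (version 3.58.1, under R 4.3.3). Its two-sided test used log2 values of deposited FPKM plus a pseudocount of 1, with variances that follow expression. No block was used. The script was tested on simulated data. No pair of libraries held identical values, and between 11187 and 11357 genes reached 1 FPKM per library, with FPKM totals of 304893 to 307263 in TABS and 312629 to 317439 in HA.

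The members and lists were chosen with earlier results of these data known. Named are all members, listed genes that passed, up to 3 more per list by smallest adjusted p, and the 3 genes nearest in profile to each called member; Itgb1, Itgav, Fgf2, Mxi1, Ppard, marker genes and genes below the filter were named after their values were seen. Motifs were also chosen then. Some listed genes are given only in counts, and a few genes of the families and lists are not reported here and enter no list count. In all, 19 alternatives were tried.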

Additional observations from a re-analysis of the deposited data

Results flagged for a closer look

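In groups of 4 libraries a value was picked out where its gap to the nearest other library was a share of the group's range beyond Dixon's 95% critical value for 4 values, which chance does in about 1 in 20 groups. Of 134 groups checked, 5 were picked out, against 6.7 given by that rate. Those groups left out some genes named here, among them Itgav, Mxi1, Ppard and Pgf, so the count does not cover every listed gene. The 5 are given next. Angptl7 in HA had 2.23 FPKM in HA 1, against 2.94 to 3.07 in the other HA libraries, and without HA 1 its log2 fold change was 1.10. Angptl6 in HA had 0.754 FPKM in HA 1, against 0.447 to 0.481 in the others. Nrp2 in HA had 28.9 FPKM in HA 1, against 32.3 to 32.6. Car9 in HA had 44.8 FPKM in HA 1, against 25.6 to 26.03. Zfp36l1, an mRNA decay factor gene, had 23.9 FPKM in TABS 1, against 25.4 to 25.6 in the other TABS libraries. In 4 of the 5 the library was HA 1. In the genes left out other libraries stood apart: HA 4 for Itgav and Pgf, TABS 2 for Mxi1, and TABS 4 and HA 2 for Ppard.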

How the results depend on the processing

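The counts of members higher in TABS (2) held in all alternatives. The 1 member lower in TABS, Angpt1, became 0 with no filter, with a filter of 5 FPKM (which drops it), with the replicate number as a block, and with the block and the GC and length correction, and was 0 to 1 with 1 library left out. Over all genes, 506 higher became 915 after rescaling to TPM, 136 with the block and 165 with the block and the correction, and 247 to 429 with 1 library left out. The 327 lower became 94 with the block, 152 with the block and the correction, 195 with no filter, and 168 to 289 with 1 library left out. No label says that replicate numbers pair libraries. Correlations of deviations between libraries of the same number were 0.10, 0.05, -0.10 and -0.06 for replicates 1 to 4. Only TABS 1 correlated best with the HA library of its own number. These few values cannot settle whether the numbers pair libraries. With the block the adjusted p was 0.0145 for Angptl7, 0.022 for Angptl2 and 0.106 for Angpt1. It removed the calls on Itga5, Plin2, Cebpd, Dusp1, Zfp36, Zfp36l2, Cxcl12, Pdgfd, Slit2, Timp2, Timp3, Vash2, Dcn, Sept2 and Zfp946. Directions turned for 6 genes without a call. Vegfa was at 0.0087 after rescaling to TPM. With the GC and length correction, with or without the block, Angpt4 was at -0.0222, Nrp1 at 0.000435, Bmp1 at -0.0036, Hnrnpl at -0.000994 and Mcph1 at -0.0242. With 1 library left out Angpt4 ran from -0.0300 (TABS 3) to 0.0600 and was -0.0145 without HA 4, and Mcph1 ran from -0.0335 (HA 4) to 0.0663. The cause was not tested. The depth is unknown, so precision is limited most for Angptl1, Angptl4, Angptl6 and Vegfc.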

Other observations

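Several listed genes varied widely among the libraries of 1 group. Fkbp5, a glucocorticoid-induced co-chaperone gene, had 67.7, 72.4, 69.1 and 68.2 FPKM in TABS 1 to 4 and 29.2, 65.0, 31.8 and 71.2 FPKM in HA 1 to 4 (log2 fold change 0.59, limma adjusted p = 0.216). HA 4 lay within the TABS range, HA 2 just under it, and HA 1 and HA 3 far below. Itgav, an integrin chain that pairs with Itgb3, had 12.3, 5.49, 5.14 and 11.3 FPKM in TABS 1 to 4 and 4.62, 4.801, 4.58 and 12.6 FPKM in HA 1 to 4 (0.35, adjusted p = 0.587). TABS 1, TABS 4 and HA 4 lay near the same high level, and the other 5 libraries near the same low level. Fgf2, a fibroblast growth factor gene, had 1.45, 1.44, 0.255 and 0.0715 FPKM in TABS 1 to 4 and 1.62, 1.23, 0.0792 and 1.78 FPKM in HA 1 to 4. Mxi1, a Myc antagonist gene, had 5.52, 3.33, 5.56 and 5.50 FPKM in TABS 1 to 4 and 5.38, 4.63, 5.39 and 2.41 FPKM in HA 1 to 4. Ppard, a PPAR receptor gene, had 4.205, 3.73, 4.19 and 7.28 FPKM in TABS 1 to 4 and 4.001, 6.62, 3.86 and 4.25 FPKM in HA 1 to 4. These genes were picked after their values were seen, and the libraries at the extremes differed between them.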
